A study of Mus musculus with 6 samples.

Results

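Among the transcripts that control GC2 cells already expressed, 64 stood at least 2 times above both control libraries in every library treated with triptolide or triptonide. They were chosen from measured values. A transcript was taken if it carried a mouse Ensembl transcript ID, had at least 2 FPKM in both control libraries with a control mean under 200 FPKM, and if the lowest of its 4 treated values was at least 2 times the higher of its control values. FPKM divides the fragments assigned to a transcript by its length in kilobases and by the number of fragments mapped in that library. The table lists 65535 transcripts, of which 65189 have an Ensembl ID. Of these, 9303 met the control level, so the 64 make up 0.688% of the transcripts that could have been chosen by fold.

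The 6 libraries came from GC2 (GC2-spd), a mouse cell line named as a spermatocyte line in the labels, and fall into 3 groups of 2 by agent. The groups are control, triptolide (spelled Tiptolide on the samples) and triptonide. Each well of a 6-well plate received 100000 cells in 2 mL of medium, and after 12 h of growth the protocol gives 0.1 µM triptolide for 24 h. The same protocol text stands on every sample and names neither a dose nor a time for triptonide, nor a vehicle for the control, so whether the doses matched is not known. The labels give no animal, genotype or transgene, and how the line was made is not stated in them. All groups share the line, the medium with 10% serum, the removal of ribosomal RNA and the strand-specific library kit. A cell line is a limited model of a spermatocyte in the testis, because it grows in culture without the neighbouring cell types.

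Triptolide and triptonide are diterpenoids of the vine Tripterygium wilfordii, extracts of which are known to impair male fertility. Triptolide binds XPB, the ATPase subunit of the general transcription factor TFIIH, and so blocks the opening of promoter DNA by RNA polymerase II. Triptonide carries a ketone at the position where triptolide has a hydroxyl group. The amount of an RNA in a cell is set by its synthesis and its decay, and after a general block of synthesis long-lived RNAs make up a growing share of what is left. FPKM is such a share, so a higher FPKM does not by itself say that a cell holds more molecules of a transcript, and more RNA per cell and a loss of other RNA cannot be told apart here.

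The table names transcripts by ID, and 0 of its 65535 IDs were found in the available tables of gene names. The 64 transcripts therefore carry no gene names, roles or sequences in this account, the identity of the line was not checked against marker genes, and a few are named by ID while the rest are given by rank. Rank 1 is the transcript with the largest ratio of its lowest treated value to its higher control value. The depth of the libraries is unknown. Steps in the low values gave relative depths of 0.818 and 1.0 for control, 0.599 and 0.674 for triptolide, and 0.763 and 0.737 for triptonide. On this reading all 4 treated libraries, in which the 64 transcripts were high, were shallower than both control libraries. Of the pairs of libraries used, only control replicate 1 with triptolide replicate 2 joined a control library to a treated one. Among the pairs not used, control replicate 2 with triptonide replicate 1 put the treated library deeper. The other unused pairs of a control and a treated library put the treated library shallower.

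Few of the transcripts that the control cells expressed reached the ratio of the rule. Over the 9303 transcripts at the control level the fold of group means had a median of 0.682 after triptolide and 0.898 after triptonide. The ratio of the rule sets the lowest of 4 values against the higher of 2, so it tends to lie under 1 even for a transcript that does not change. Its median was 0.548, the 95th percentile 1.23 and the 99th percentile 1.82. A ratio of at least 1.5 was reached by 201 transcripts, of at least 2 by the 64, of at least 3 by 12 and of at least 4 by 4. The opposite pattern, with all 4 treated values at or below 0.5 times the lower control value, was seen for 159 of the 9303.

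**Figure D1:**
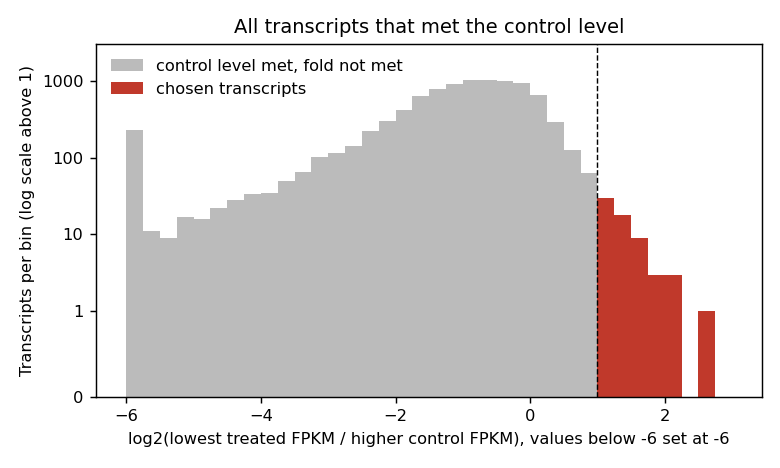
Number of transcripts (vertical axis, log scale above 1) by the log2 ratio of the lowest treated FPKM to the higher control FPKM (horizontal axis), for the 9303 transcripts at the control level, with values below -6 drawn at -6. The 64 chosen transcripts, in red to the right of the dashed line at a ratio of 2, form the upper tail of a single broad distribution whose median ratio is 0.548.

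The rule cut through this tail without a gap. The 3 transcripts nearest inside it had ratios of 2.00, 2.01 and 2.01, and the 3 nearest outside it had ratios of 1.99, 1.96 and 1.96. The transcript nearest inside had 5.80 and 6.46 FPKM in control and a lowest treated value of 12.9 FPKM. The transcript nearest outside had 22.3 and 19.9 FPKM in control and a lowest treated value of 44.3 FPKM. These values show that membership near the threshold depended on differences smaller than those between replicate libraries.

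Both compounds had to pass for a transcript to enter. At the control level, 139 transcripts had both triptolide libraries at least 2 times above the higher control value, and 96 had both triptonide libraries there. The 64 that met both conditions are 46.0% of the triptolide list and 66.7% of the triptonide list. The lists share their control libraries, so their overlap is given as the count that the rule fixes and not as evidence of a common response.

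Most of the 64 transcripts were expressed at low to moderate levels in control cells. In control replicates 1 and 2 their FPKM ranged from 2.06 to 61.1 and from 2.02 to 65.6, with medians of 5.11 and 5.31, against medians of 7.42 and 7.44 for all 9303. By control mean, 30 lay between 2 and 5 FPKM, 16 between 5 and 10, 14 between 10 and 20, and 4 at 20 FPKM or more. As shares of the transcripts at the same level these were 0.936%, 0.672%, 0.769% and 0.211%. The share was thus lowest in the most abundant class, which holds 1897 transcripts. No transcript with a control mean of 200 FPKM or more, of 125 such, showed the same fold. At shares as low as these, 125 transcripts could well hold none, so nothing is read from this.

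After treatment the medians of the 64 were 18.4 and 18.8 FPKM in the triptolide libraries and 15.2 and 15.5 FPKM in the triptonide libraries. Over all 9303 transcripts at the control level the medians were 5.13 and 5.24 FPKM with triptolide, and 6.90 and 6.86 FPKM with triptonide, below those of the control libraries. The fold of group means for the 64 had a median of 3.27 after triptolide, with quartiles of 2.82 and 4.27, and a median of 2.75 after triptonide, with quartiles of 2.48 and 3.18. It reached at least 4 in 20 transcripts after triptolide and in 7 after triptonide. Over the 4 classes of control level the median fold ran from 3.13 to 3.61 for triptolide and from 2.496 to 3.06 for triptonide. The rule holds every such fold at 2 or more, so nothing is read from how close these medians lie.

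**Figure D2:**
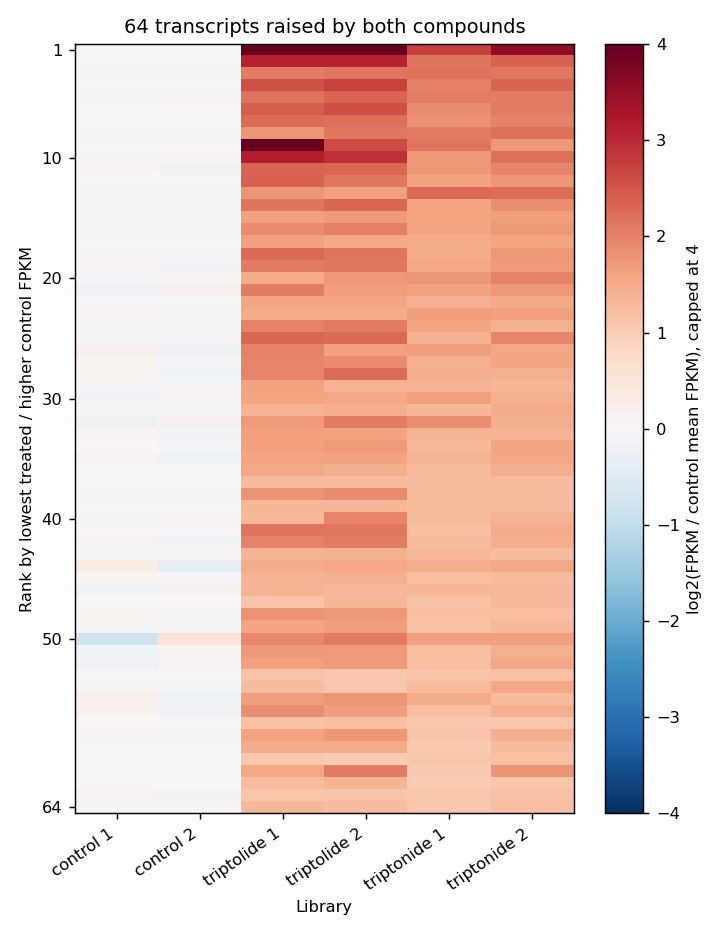
Log2 of FPKM relative to the mean of the control libraries (colour, capped at 4) for the 64 transcripts (rows, ordered by rank) in each of the 6 libraries (columns). Treated libraries are red throughout because the rule required it, triptolide columns are darker than triptonide columns in most rows, and rank 9 is dark in triptolide replicate 1 alone.

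With limma on log2(FPKM + 0.5) over the 23407 transcripts that had at least 0.5 FPKM in at least 2 libraries, all 64 were tested, since all had passed that level in control. With adjusted p under 0.05 as the call, 64 of the 64 were called higher after triptolide, where the background was 12.4% of all tested transcripts, and 61 were called higher after triptonide, where it was 6.27%. None was called lower, with backgrounds of 23.1% and 4.36%. The rule used both of these contrasts, so the counts describe the choice and support nothing. The count for triptonide was 24 without control replicate 1, 26 without control replicate 2 and 32 without triptonide replicate 2, where the backgrounds fell to 0.765%, 0.923% and 0.897%. The median log2 fold change of the 64 was 1.65 after triptolide and 1.38 after triptonide, against -0.26 and -0.01 for all tested transcripts. The 3 not called after triptonide, at ranks 9, 50 and 61, each had replicates that lay far apart in at least 1 group. Rank 50 had 2.18 and 5.64 FPKM in the control libraries. Rank 61 had 48.4 and 81.4 FPKM after triptonide and 69.3 and 97.9 FPKM after triptolide.

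The median absolute log2 difference between replicates over the 64 was 0.095 in control, 0.085 after triptolide and 0.15 after triptonide. At the control level it was 0.12, 0.16 and 0.15. Transcripts with a 0 in either replicate were left out there, so these medians cover 9303, 9181 and 9257 transcripts. The rule sets the lowest treated value against the higher control value, which works against transcripts whose replicates lie apart. No property of the 64 is therefore read from these medians. The widest gap was that of rank 9, which had 5.54 and 5.44 FPKM in control, 409.1 and 33.4 FPKM in triptolide replicates 1 and 2, and 24.3 and 18.1 FPKM after triptonide. Its triptolide mean rested on replicate 1, and its fold of means of 40.3 after triptolide was for that reason the highest of the 64. It fell outside the rule for naming transcripts and was singled out after its values were seen. Other replicates that lay apart were the control libraries of rank 44, at 3.85 and 2.39 FPKM, and the triptolide libraries of rank 40, at 8.80 and 14.0 FPKM. The widest gap between triptonide libraries, 0.80 on the log2 scale, was that of rank 1. Triptonide replicate 1 was below replicate 2 in 50 of the 64, or 78.1%, whereas this was so for 45.3% of the 9303. The same library held the lowest of the 4 treated values in 44 of the 64. Without that library in the rule 86 transcripts would have been chosen. Without control replicate 1 or control replicate 2 the numbers were 124 and 118. Leaving out a control library also loosens the control level and leaves a single control value to set the bound. These numbers therefore do not show which libraries limited entry most.

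ENSMUST00000027941 had the largest ratio, 6.63. It had 2.75 and 2.77 FPKM in control, 47.9 and 45.4 FPKM with triptolide, and 18.4 and 32.0 FPKM with triptonide. All treated values lay far above control, and both triptonide values lay below both triptolide values but apart from each other. As means ± SD (n = 2) these were 2.76 ± 0.015, 46.7 ± 1.74 and 25.2 ± 9.61 FPKM, which gave folds of 16.9 after triptolide and 9.12 after triptonide. The difference between the compounds did not pass (adjusted p = 0.0843 by limma), at -0.93 on the log2 scale for triptonide against triptolide and a 95% interval from -1.62 to -0.24. Over the 16 other settings its adjusted p ran from 0.0384 to 0.237, and it passed only without triptonide replicate 2, the library closer to triptolide.

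ENSMUST00000039388 was the next by ratio, at 4.32. It had 2.41 and 2.35 FPKM in control, 20.03 and 20.09 FPKM with triptolide, and 10.4 and 12.1 FPKM with triptonide. The 3 groups did not overlap and stood in the order control, triptonide, triptolide, with means ± SD (n = 2) of 2.38 ± 0.040, 11.3 ± 1.20 and 20.1 ± 0.043 FPKM. The folds of means were 8.42 after triptolide and 4.73 after triptonide. The comparison of the compounds passed, with a log2 difference of -0.81 with an SE of 0.099 (adjusted p = 0.0129 by limma). Leaving out triptolide replicate 1, triptolide replicate 2 or triptonide replicate 1 ended the call, at adjusted p = 0.0655, 0.0602 and 0.0600, and the adjusted p over all 16 other settings ran from 0.00988 to 0.0655.

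**Figure D3:**
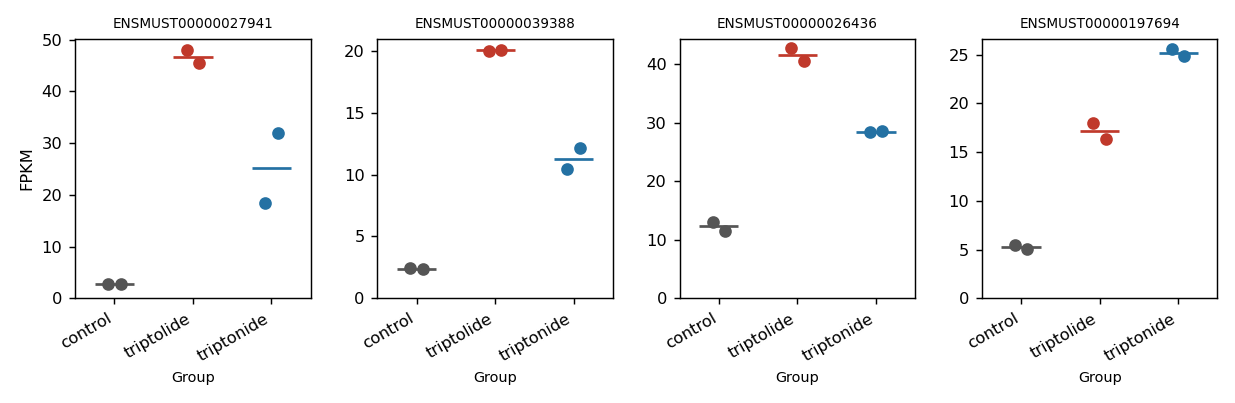
FPKM (vertical axes, starting at 0) of 4 of the 64 transcripts in the control, triptolide and triptonide libraries, with points for single libraries and lines for the means of 2. Triptonide lies below triptolide in the first 3 panels and above it in the panel of ENSMUST00000197694, at 25.2 against 17.1 FPKM.

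The rise was the larger of the 2 after triptolide in most of the 64. The fold of means was larger after triptolide in 54 and larger after triptonide in 10, and the ratio of the triptonide mean to the triptolide mean had a median of 0.840 with quartiles of 0.723 and 0.973. The highest of the 4 treated values came from a triptolide library in 52 transcripts, and the lowest from a triptonide library in 55. Both triptonide libraries lay below both triptolide libraries in 42 transcripts, where 16.3% of all tested transcripts did so, and above them in 5, where 44.9% did. At the control level these backgrounds were 13.7% and 59.4%. The rule takes no transcript that was low after either compound, while the background includes many that were low after triptolide, so no property of the 64 is read from the gap between their shares and these backgrounds, here or in the comparison that follows. In the other 17 the groups overlapped. The 5 above were ranks 13, 20, 23, 54 and 60.

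The direct comparison of the compounds was not a contrast the rule set, although the rule held both compounds above a lower bound. In it, 15 of the 64 transcripts, or 23.4%, were lower after triptonide (limma adjusted p under 0.05), against 3.62% of all tested transcripts and 3.76% of those at the control level. In the other direction 1 of the 64 was called, or 1.56%, against 12.1% and 25.8%. The median log2 fold change of triptonide against triptolide was -0.24 over the 64, and it was 0.24 over all tested transcripts and 0.35 over the 9303. The estimate was below 0 in 54 of the 64, or 84.4%, and in 24.2% of the 9303. With no triptonide dose in the labels, these differences hold for the exposures used and not for equal doses.

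The number of these calls rested on the libraries and on the model. The 15 lower calls became 2 when control replicate 1 or 2 was left out, where 1.70% and 1.71% of all tested transcripts were called lower. They became 0 and 1 when triptolide replicate 1 or 2 was left out, with backgrounds of 0.897% and 1.20%. They became 0 and 5 when triptonide replicate 1 or 2 was left out, with backgrounds of 0.0983% and 1.30%. With all 6 libraries there were 4 lower calls with no filter on low values, 5 without an intensity trend and 2 with the replicate number as a block, with backgrounds of 1.98%, 2.66% and 1.35%. A fit of only the groups compared gave 2, with a background of 1.65%. The estimate was below 0 in 51 to 55 of the 64 with a library left out, and the median stayed between -0.30 and -0.20. The 16 called estimates kept their sign under each of the 16 other settings.

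Scaling changed the size of the difference. Median-of-ratios scaling moved the median of all tested transcripts from 0.24 to -0.0035, and the median of the 64 from -0.24 to -0.59. It then called 35 of the 64 lower, against 7.5% of all tested transcripts, and 0 higher, against 4.8%. Relative to the median of all tested transcripts the 64 stood at -0.49 with FPKM as deposited, at -0.58 with median-of-ratios scaling, at -0.48 after quantile normalization and at -0.52 when libraries were scaled by their sum without the 100 most abundant transcripts. For triptolide against control the same scaling moved the median of all tested transcripts from -0.26 to 0.01, and the 64 stood at 1.91 above all tested transcripts as deposited and 2.00 above them with median-of-ratios scaling.

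**Figure D4:**
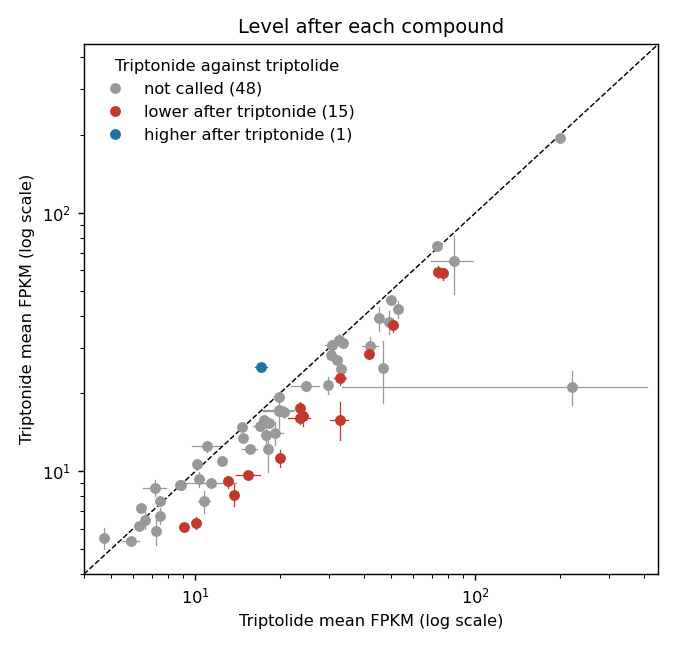
Mean FPKM after triptonide (vertical axis, log scale) against mean FPKM after triptolide (horizontal axis, log scale) for the 64 transcripts, with thin lines joining the 2 libraries of each group and a dashed line of equal level. Points below the dashed line are 54 of 64, of which 15 in red were called lower after triptonide, and 1 in blue was called higher.

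The 15 transcripts called lower after triptonide had median levels of 4.98 FPKM in control, 23.7 FPKM after triptolide and 16.0 FPKM after triptonide. Their log2 fold changes for triptonide against triptolide ran from -1.04 to -0.31. Their fold of means over control had a median of 4.32 after triptolide and 2.85 after triptonide, while the 48 that were not called had medians of 3.07 and 2.70. The 15 and the 48 thus differed more in the triptolide fold than in the triptonide fold, which is a description of lists chosen by the test between the compounds. The largest called difference was that of rank 10, with 3.80 and 4.20 FPKM in control, 35.2 and 30.3 FPKM with triptolide, and 13.2 and 18.5 FPKM with triptonide, a log2 difference of -1.04 with an SE of 0.18 (adjusted p = 0.0286 by limma).

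ENSMUST00000026436 had the second smallest adjusted p among the 15. It had 13.0 and 11.6 FPKM in control, 42.8 and 40.5 FPKM with triptolide, and 28.4 and 28.5 FPKM with triptonide. The groups did not overlap, and the triptonide libraries lay between the others, at about 0.683 times the triptolide mean. Triptonide against triptolide gave a log2 difference of -0.54 with an SE of 0.077 (adjusted p = 0.0171 by limma). The call was lost without an intensity trend (adjusted p = 0.0513), without triptolide replicate 1 (adjusted p = 0.0795), without triptolide replicate 2 (adjusted p = 0.0601), without triptonide replicate 1 (adjusted p = 0.0907) and without triptonide replicate 2 (adjusted p = 0.0757). Its adjusted p over the 16 other settings started at 0.0119.

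ENSMUST00000197694, at rank 13, was the 1 transcript called higher after triptonide than after triptolide, and it was named after its values were seen. It had 5.46 and 5.10 FPKM in control, 18.0 and 16.3 FPKM with triptolide, and 25.6 and 24.8 FPKM with triptonide. The groups did not overlap, and the order of the compounds was the reverse of that in most of the 64. The folds of means over control were 3.25 after triptolide and 4.78 after triptonide. Triptonide was above triptolide by a log2 difference of 0.55 with an SE of 0.082 (adjusted p = 0.0194 by limma). It was 0.20 with median-of-ratios scaling (adjusted p = 0.239) and 0.34 after quantile normalization (adjusted p = 0.0770), and neither passed. It also did not pass without either triptolide library (adjusted p = 0.0560 and adjusted p = 0.0695) or either triptonide library (adjusted p = 0.0991 and adjusted p = 0.0766), while its lowest adjusted p over the 16 settings was 0.0145.

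For many of the 64 the fit bounded the difference between the compounds without resolving it. Of the 48 that were not called, 43 had a 95% confidence interval within 1 log2 unit of 0, so that for them a difference of more than 2 times lay outside the interval, and 5 had an interval that reached further. The median half-width of the interval was 0.28 over the 64 and 0.57 over all tested transcripts. The rule favours close replicates and at least 2 FPKM in control, while the tested transcripts reach down to 0.5 FPKM. The narrower intervals are therefore not read as a property of the 64. The transcript at rank 3 had 16.6 and 17.4 FPKM in control, 70.6 and 75.5 FPKM with triptolide, and 76.4 and 72.6 FPKM with triptonide. Its treated values overlapped, and the log2 difference was 0.03, in a 95% interval from -0.14 to 0.19 (adjusted p = 0.795 by limma). Rank 37 had 3.75 and 3.68 FPKM in control, 8.91 and 8.76 FPKM with triptolide, and 8.76 and 8.88 FPKM with triptonide, with an interval of -0.21 to 0.20. These intervals do not show equal action of the compounds, whose doses may have differed.

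A run of 3 of the 64 stood within 4 successive rows of the table. They were ranks 15, 17 and 35, with control means of 63.3, 6.68 and 3.40 FPKM. Rank 15, the most abundant of the 64 in control, had 61.1 and 65.6 FPKM in control, 197.5 and 204.4 FPKM with triptolide, and 190.1 and 200.6 FPKM with triptonide. Rank 17 had 6.55 and 6.82 FPKM in control, 20.7 and 19.1 FPKM with triptolide, and 18.9 and 19.9 FPKM with triptonide. Rank 35 had 3.69 and 3.11 FPKM in control, 10.2 and 10.4 FPKM with triptolide, and 8.66 and 9.95 FPKM with triptonide. The folds of means were 3.17, 2.98 and 3.03 with triptolide and 3.08, 2.90 and 2.74 with triptonide. The rule holds every such fold at 2 or more, so nothing is read from how close they lie. The table does not say whether neighbouring rows belong to the same gene, and transcripts that overlap share fragments, so the 3 may not be independent measurements.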

How the data were processed

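RNA was sequenced from 6 libraries of GC2 cells, 2 each for control, triptolide and triptonide. The deposited table holds the authors' FPKM for each transcript. Per the submitters' processing notes, the tools were STAR and StringTie, versions not given, and the build hg19. That build is human while the IDs are mouse Ensembl IDs, so no coordinates are given. The table may be cut short, so its column sums are not depths, and absolute depth and counting error are unknown. Whether replicates were separate cultures is not given in the labels, and p-values then cover only the spread between these libraries, which may be technical.

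The 64 transcripts, the lists and the settings were chosen with earlier results of these data known. Using limma 3.58.1 (R 4.3.3), 1 model with an intensity trend was fitted to log2(FPKM + 0.5) of the 6 libraries, over 23407 transcripts that reached 0.5 FPKM in 2 or more libraries, with Benjamini-Hochberg adjustment over all of them. Fold changes on this scale understate those of low transcripts, and overlapping transcripts share fragments that the quantification divides. Relative depth was read from steps in the ratios of values between 0.01 and 0.2 FPKM, in 8 of the pairs of libraries. Transcripts were named by ID for the 2 largest ratios and the 2 smallest adjusted p among those lower after triptonide, since no table paired IDs with genes. Planned gene lists and cell markers were for that reason not analysed here.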

Additional observations from a re-analysis of the deposited data

How the results depend on the processing

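The number of transcripts chosen was 201 with a fold of 1.5, 12 with a fold of 3, 120 with a control minimum of 1 FPKM and 31 with one of 5 FPKM. It was 71 after median-of-ratios scaling, of which 55 were among the 64, and 80 when scaled by library sums without the 100 most abundant transcripts, of which 60 were. Leaving each library in turn out of the rule gave 70 to 124, all 64 among them by construction. Lower calls for triptonide against triptolide were 4 with no filter on low values (1.98% of all tested transcripts), 35 with median-of-ratios scaling (7.5%), 2 in a fit of only the groups compared (1.65%) and 5 without an intensity trend (2.66%), and 0 to 5 with a library left out. The 1 higher call was 0 with median-of-ratios scaling (4.8% of all tested transcripts) and with quantile normalization (5.57%). The median difference of -0.24 was -0.59 with median-of-ratios scaling, -0.37 when scaled by library sums without the 100 most abundant transcripts and -0.43 after quantile normalization, and -0.30 to -0.20 with a library left out. Calls against control with a library left out were 61 to 63 for triptolide and 24 to 61 for triptonide. With any library left out, the shares of all tested transcripts called higher also lay below the 12.4% and 6.27% of the full fit. The rule used both contrasts against control, and each such fit left 1 library in a group. The counts against control therefore describe the choice and support nothing. The cause of the moves between settings was not tested. The median difference over the 64 kept its sign under the settings run. With median-of-ratios scaling 9 of the 64 estimates turned sign, as did the medians of all tested transcripts for triptonide against triptolide, from 0.24 to -0.0035, and for triptolide against control, from -0.26 to 0.01. Quantile normalization turned 9 estimates, scaling by library sums without the 100 most abundant transcripts 5, and leaving out a triptolide or triptonide library 3 to 4.

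With the replicate number as a block, lower calls were 2, against 1.35% of all tested transcripts. Calls against control were then 63 for triptolide and 54 for triptonide, with 10.5% and 1.79% of all tested transcripts called higher. The labels do not say that a number marks a shared culture or day, and deviations of same-numbered libraries correlated across transcripts at -0.037, 0.0096 and 0.014 between the groups, so the numbers were not taken to pair the libraries. With 2 libraries a group and depth unknown, small differences between the compounds could not be resolved for the 48 of the 64 that were not called.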

Other observations

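Rows within 3 of the 64 transcripts were also called higher more often than all tested transcripts, which include them, on the contrasts that the rule used. The locus numbers of the 346 assembled loci did not fall from row to row in 343 of 345 successive steps, and the order of the other rows was not checked. Within 3 rows of one of the 64 stood 373 other transcripts, of which 206 were tested. Of these, 25.2% were called higher and 15.0% lower after triptolide (limma adjusted p under 0.05), against 12.4% and 23.1% of all tested transcripts. After triptonide 12.6% were called higher and 4.37% lower, against 6.27% and 4.36%. The median log2 fold change of these neighbours was 0.19 after triptolide and 0.20 after triptonide, against -0.26 and -0.01 for all tested transcripts. Neighbouring rows may be transcripts of one gene and then share fragments with the chosen transcript, and the part of this in the result was not tested.

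ID numbers were compared only at a cut of 100000, with no test. An ID number under 100000 was carried by 40 of the 64, or 62.5%, and by 46.7% of the 9303, which include the 64. Outside the control level of the rule, 1914 transcripts with a control library under 2 FPKM, and not listed at 0 in both, showed the same fold in all 4 treated libraries. The transcripts that could have done so were not counted, so this number has no share to set beside that of the 64. The condition admits very low control values, and nothing is read from the count.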
